A study of Paracentrotus lividus with 54 samples.

Results

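Regions of open chromatin that were listed in blastula, gastrula and prism embryos of the sea urchin Paracentrotus lividus, and in neither the 16-cell embryo nor the pluteus larva, numbered 40684. They were chosen from the gastrula peak list of an ATAC-seq series. A gastrula peak was taken when at least 1 of its bases overlapped a peak in the blastula list and in the prism list, and no base overlapped any peak in the 16-cell or pluteus lists. These blastula-to-prism regions made up 26.4% of the 154157 gastrula peaks, and the 5 distinct lists held 484062 peaks between them. Because the lists themselves chose the regions, presence, area and rank in those lists are given as description, without a test. RNA levels and gene positions played no part in the choice.

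ATAC-seq uses a transposase that cuts accessible DNA, so a peak marks a stretch where nucleosomes and other proteins leave the DNA exposed. Promoters tend to stay accessible across many cell types, while enhancers, the distal elements that bind transcription factors and act on promoters, tend to open in particular cells and at particular times. In the sea urchin, the blastula is a hollow ball in which the main territories are being specified. The gastrula forms the gut by invagination, the prism extends the larval skeleton, and the pluteus is the feeding larva. All ATAC-seq samples were nuclei of whole embryos or larvae, so a site open in fewer cells and a site less open in each cell cannot be told apart.

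The labels gave 2 ATAC-seq samples to the 16-cell stage, 6 to early blastula, 7 to gastrula, 4 to prism and 2 to pluteus, and 1 peak list was read for each stage. Another 7 samples were labelled late blastula, but the list named for that stage was identical to the early blastula list, so a single blastula list was used. No genetic change or drug treatment is named for any group. RNA-seq gave 1 library for each of 17 stages, from the egg at 0 hours to the pluteus larva at 48 hours, and 1 for each of 5 adult tissues. Read counts in the developmental libraries summed to between 15732056 in the egg and 29677432 in the pluteus. The prism RNA library stood apart, with a TMM scaling factor of 0.3667 against 0.8123 to 1.277 in the other developmental libraries. No genome sequence was used here, so regions are given by the scaffold coordinates of the deposited lists, and the gene models carry identifiers without names.

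The lists differed in length as well as in stage. The 16-cell list held 30683 peaks, the blastula list 142485, the gastrula list 154157, the prism list 112026 and the pluteus list 44711. The lists that had to lack a region were thus the shorter ones, and they were also those with 2 samples each. What part list length or sample number played in membership was not tested. Every list stopped at the same lowest area of 200, where area is the area under the peak as the peak caller gave it, a value made by the authors.

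Among gastrula peaks, the blastula-to-prism pattern was the most frequent combination of presence and absence in the full lists. With every list held to its 30683 largest peaks, 634 gastrula peaks, or 2.07%, had it. In the full lists, the next most frequent were peaks shared with the blastula list alone, with 26775, and peaks in no other list, with 20063. A further 17456 gastrula peaks were in all 5 lists, 16885 were in blastula, prism and pluteus but not 16-cell, and 10031 were in 16-cell, blastula and prism but not pluteus. Of the 85056 gastrula peaks found in both blastula and prism, 47.8% were in neither of the outer lists, 32.3% were in the 16-cell list and 40.4% were in the pluteus list. The blastula-to-prism regions covered 22.6% of the bases covered by all gastrula peaks.

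The regions were of middling size. Their median width was 364 bp, against 368 bp for all gastrula peaks and 867 bp for peaks in all 5 lists. Their median area was 714, with a 5th percentile of 329 and a 95th of 1916, against 662 for all gastrula peaks. Peaks in all 5 lists had a median area of 4022, those shared with pluteus but not 16-cell 3118, and those shared with 16-cell but not pluteus 1186. The median −log10 p-value, also the authors' value, was 6.54 in the blastula-to-prism regions and 13.3 in peaks of all 5 lists. Large regions were few: 208, or 0.511%, exceeded the median area of the peaks in all 5 lists, and 1118 were 1 kb or wider, the widest reaching 4079 bp.

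Gastrula peaks were divided into 10 groups of equal number by area, a split made after the data were seen. Blastula-to-prism regions were 2.62% of group 1, which held the smallest areas, 59.0% of group 6 and 1.19% of group 10. The lower end followed presence in the prism list, which held 8.97% of the smallest gastrula peaks, 80.6% of group 5 and 98.1% of group 7. At the upper end, presence in the pluteus list went from 18.4% in group 7 to 47.3% in group 8, 82.7% in group 9 and 98.0% in group 10. Presence in the 16-cell list reached 55.1% in group 10. Among gastrula peaks in blastula and prism, the share absent from both outer lists went from 94.0% in group 1 to 62.3% in group 7, 32.8% in group 8 and 1.23% in group 10. Membership therefore moved with peak area, and whether the smaller peaks were closed or fell under the area limit in the outer stages was not tested.

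**Figure D1:**
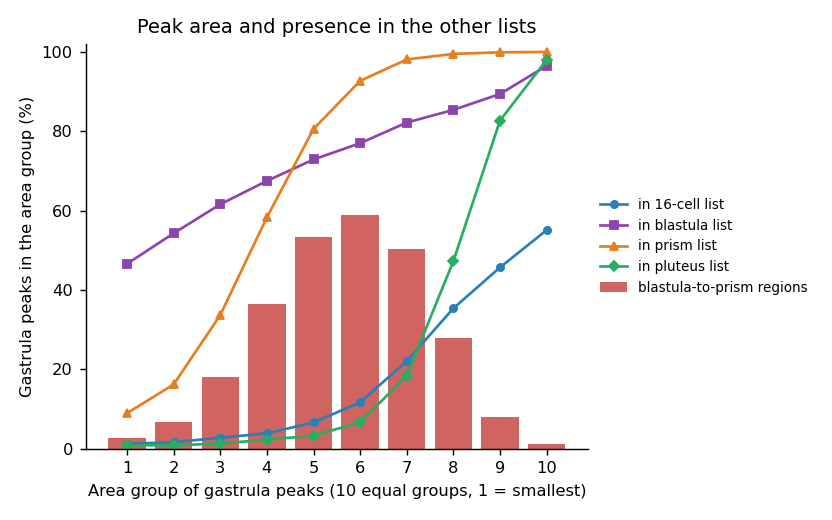
Share of gastrula peaks (y axis, percent) in 10 equal groups by peak area (x axis, 1 = smallest), with bars for blastula-to-prism regions and lines for peaks overlapping each of the other 4 lists. The bars are highest in group 6 at 59.0% and fall to 1.19% in group 10, where 98.0% of peaks overlap a pluteus peak.

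The position of the regions was nearly the same in the lists that held them. A single blastula peak was the partner of 98.4% of regions, and a single prism peak of 97.5%. The summit, the base of strongest signal, lay a median of 5 bp from the blastula partner's summit and 4 bp from the prism partner's. It lay within 50 bp in 79.9% and 86.9% of regions, and the shared stretch was under 50% of the shorter peak in 0.221% and 0.0983%. Together the regions overlapped 40770 distinct blastula peaks, 28.6% of that list, and 41592 distinct prism peaks, 37.1% of that list, and neighbouring regions could share a partner.

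Ranks within each list, from 0 for the smallest area to 100 for the largest, put most regions higher in blastula and gastrula than in prism. The median percentile was 52.9 in the blastula list, 52.4 in the gastrula list and 31.3 in the prism list. The list with the highest rank was blastula for 20694 regions, gastrula for 19162 and prism for 828, or 2.04%. The blastula rank exceeded the prism rank in 79.3% of regions, by a median of 19 percentile points over all regions. Lists of different lengths rank a peak among different competitors, so these percentiles describe a standing and do not show a change in openness. Across the regions, gastrula ranks followed prism ranks (Spearman's rho = 0.78, n = 40684) more closely than blastula ranks (rho = 0.39), as a description of peaks that share a gastrula list.

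The distance of regions from the edges of the definition was also measured, in bases. The smallest overlap that a region had with its blastula or prism partners was 22 bases, and the median was 287 bases. The closest 16-cell or pluteus peak to any region was 38 bases away, from Scaffold_3430:24358152-24358479 with an area of 787.9. The next closest was 48 bases away, from Scaffold_674:21837932-21838360 with an area of 426.6. Just outside the definition, the peak at Scaffold_3431:5795201-5795896 with an area of 381.0 overlapped an outer list by 20 bases, and that at Scaffold_3434:29661759-29662178 with an area of 639.8 by 56 bases. Gaps of up to 100 bases were seen in 27 regions, and the median gap was 5104 bases. An outer-list peak lay within 1 kb of 19.5% of the regions, against 17% of the 26775 gastrula peaks shared with the blastula list alone, which also overlap no outer-list peak.

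Most regions, like most gastrula peaks, lay away from annotated gene starts. A summit within 1 kb of the start of a gene model was found for 3418 regions, or 8.40% (95% exact binomial interval 8.13% to 8.68%, counting error only). Introns held 33.2% (32.7% to 33.7%), exons 3.33% (3.16% to 3.51%) and the space between genes 43.3% (42.8% to 43.8%), while 11.8% were on scaffolds with no gene model. On scaffolds with gene models the median distance to a start was 8942 bp, and 40.9% of all regions lay there over 10 kb from every start. Over all gastrula peaks the shares were close to these, with 10.6% near a start, 33.0% in introns and 3.72% in exons. A further 40.5% were between genes and 12.1% on scaffolds with no gene model. The median distance over all gastrula peaks was 8675 bp, and 40.1% lay over 10 kb from every start.

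Peaks shared with the pluteus list lay near a start more often than the blastula-to-prism regions, with no test of the difference. Their share near a start was 26.7% (26.1% to 27.4%) when they were absent from the 16-cell list, and 11.9% (11.4% to 12.4%) when they were in all 5 lists. Peaks shared with the 16-cell list but not pluteus had 7.15% (6.65% to 7.67%), and the remaining gastrula peaks 8.10% (7.89% to 8.30%). Since the classes differ in area, the shares were also set side by side within the 10 area groups. In groups 1 to 4 they were 10.1%, 8.4%, 8.22% and 7.95% for blastula-to-prism regions. The other peaks in blastula and prism had 11.5%, 15.7%, 16.3% and 11.1% there, but numbered only 26, 51, 153 and 407. All gastrula peaks in those groups had 7.62%, 7.34%, 7.85% and 8.23%. In groups 5, 6 and 7 the shares of blastula-to-prism regions near a start were 7.94%, 7.80% and 8.68%, against 9.02%, 9.38% and 9.51% of the other peaks in blastula and prism. In group 8, 10.4% of blastula-to-prism regions were near a start, against 12.3% of the other peaks in blastula and prism. In group 9 the shares were 8.91% and 15.9%, and in group 10 they were 8.74% of 183 regions and 23.3% of 14686 other peaks.

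**Figure D2:**
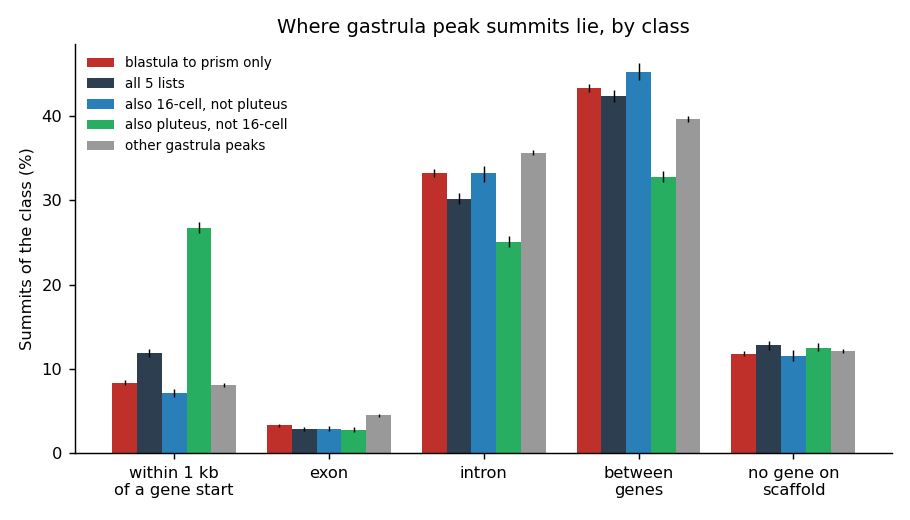
Share of peak summits (y axis, percent of the class) by position relative to gene models (x axis) for 5 classes of gastrula peaks, with bars for 95% exact binomial intervals. Blastula-to-prism regions are within 1 kb of a gene start in 8.40% of cases, and peaks shared with pluteus but not 16-cell in 26.7%.

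Regions near a start were spread over the 2 kb around it. Of the 3418 near-start summits, 27.8% were within 200 bp of the start, against 45.7% of the near-start summits shared with pluteus but not 16-cell. The outer parts of the 2 kb window, over 500 bp from the start, held 18.8% of near-start regions upstream and 22.6% downstream. The same outer parts held 7.86% and 8.19% of the summits shared with pluteus but not 16-cell.

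**Figure D3:**
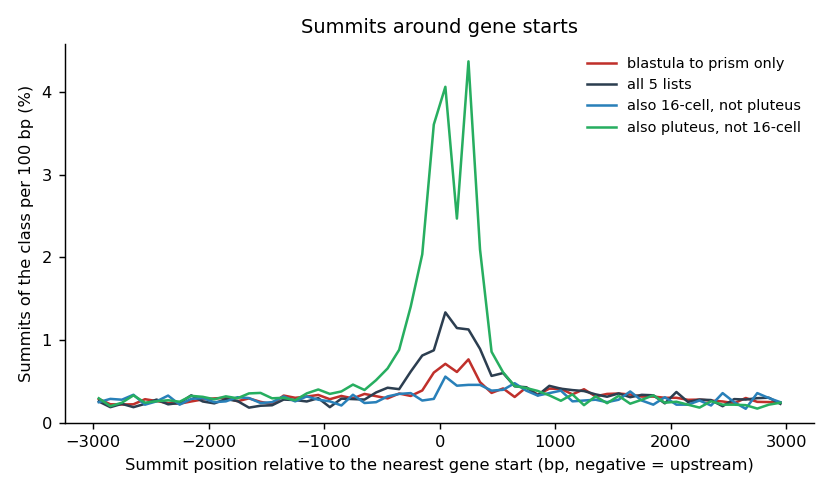
Summits per 100 bp (y axis, percent of the class) against position relative to the nearest gene start (x axis, bp, negative upstream) for 4 classes of gastrula peaks. The line for peaks shared with pluteus but not 16-cell stands far above the others close to the start, where 45.7% of its near-start summits lie within 200 bp, against 27.8% for blastula-to-prism regions.

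The 13505 intronic regions were in 7342 gene models, of which 4204 held a single one and 380 held 5 or more, up to 26 in one model. Models that held an intronic region had a median span of 23.3 kb, and those with 5 or more 82.5 kb, against 6.46 kb for all models, so long models held more. The median gastrula percentile was 53.4 near starts, 51.2 in exons, 52.4 in introns and 52.3 between genes. In the same order the median prism percentile was 33.6, 30.7, 31.1 and 31.2, and the median blastula percentile 49.5, 47.6, 53.3 and 53.5.

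Blastula-to-prism regions were found throughout the assembly. Of the 10788 windows of 100 kb that held a gastrula peak, 89.3% held at least 1, with a median of 3 and a 95th percentile of 9. On the 19 scaffolds with 1000 or more gastrula peaks, the share of peaks that were blastula-to-prism regions ran from 24.0% to 28.4%. The window richest in them, Scaffold_3434:33900001-34000000, held 21 among 48 gastrula peaks and 3 gene starts. Scaffold_1721:800001-900000 held 17 among 37 peaks and 2 gene starts.

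Neighbouring peaks shared the pattern somewhat more often than peaks in general. The next gastrula peak along a scaffold was also a blastula-to-prism region in 30.6% of cases after such a region and in 24.9% after another peak, and the shares were 33.4% and 23.4% where the gap was under 1 kb. This was not tested, and close neighbours can share a partner peak in another list. Runs were short: 49.1% of regions stood alone, 29.0% were in pairs and 13.0% in runs of 3. The longest runs had 9 regions in a row, one of them spanning 42838 bp at Scaffold_1:79119177-79162014.

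The largest regions near a start and far from one show how the 3 lists can differ. At Scaffold_3428:18639052-18640779, in an intron and 40759 bp from the nearest start, the gastrula area was 15257.5, the largest of all blastula-to-prism regions. Its percentile was 98.8 in gastrula, 96.8 in blastula and 92.5 in prism, and the nearest 16-cell or pluteus peak was 366 bases away. The region at Scaffold_3431:23392092-23392947, between genes and 19319 bp from the nearest start, had an area of 13515.9 and percentiles of 98.4, 88.5 and 91.2 in the same order. At Scaffold_3434:14426126-14428033, also between genes and 30897 bp from a start, the area was 10805.0 and the percentiles were 97.5, 87.8 and 83.5. All 3 distal regions ranked at percentile 83.5 or higher in every list that held them.

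Near starts, the largest was the 3164 bp region at Scaffold_3433:35588378-35591541, with an area of 15073.1 and its summit 163 bp downstream of a start. It was at percentile 98.8 in gastrula and 89.4 in prism but at 17.5 in blastula, where it was among the smaller peaks. The region at Scaffold_674:32037494-32038894, with its summit 755 bp upstream of a start, had an area of 12808.9 and percentiles of 98.2, 84.8 and 95.3 in gastrula, blastula and prism. The region at Scaffold_649:13827241-13828443, with its summit 579 bp downstream, had an area of 6865.9 and percentiles of 94.7, 91.8 and 77.8.

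The RNA libraries, which the choice of regions did not use, were asked whether genes with such a region at their start were higher while it was listed and lower afterwards. A smooth curve over the 17 developmental libraries was fitted to each of 22940 genes with edgeR, and scatter around the curve stood in for replicate error, since each stage had 1 library. The window contrast set the mean of the 8 libraries from early blastula to prism against the 5 from egg to 16-cell. A gene was called when its Benjamini-Hochberg adjusted p from edgeR's quasi-likelihood test was under 0.05 and its fitted log2 change at least 1. A blastula-to-prism summit lay within 1 kb of the start of 3367 gene models, and 2480 of them passed the filter on low counts.

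Of these 2480 genes, 896 were higher in the window (36.1%), against a background of 33.2% over all genes tested. Lower in the window were 392 (15.8%), against a background of 16.4%. The median log2 change was 0.58 in genes with such a region at their start and 0.45 over all genes, and the interquartile ranges, −0.59 to 2.62 and −0.70 to 2.43, overlapped almost wholly. Both shares were near the background. That background includes 11760 genes with no gastrula peak at their start, of which 30.4% were higher and 16.8% lower. In 317 of the 2480 genes (12.8%) every window library was above every early library, against a background of 10.4%. In 123 (4.96%) every one was below, against 5.87%. Genes whose gastrula start peaks were all of the blastula-to-prism kind, 1423 of those tested, had 37.0% higher and a median of 0.63.

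The median level of these genes was not lower in the pluteus library, where the regions were off the list, than in the gastrula libraries. The median level of the 2480 genes, in counts relative to the library total after TMM scaling (TMM-scaled CPM), was 2.55 in the egg, 3.19 at the 16-cell stage, 4.24 in early blastula, 4.69 in swimming blastula, 5.84 in late gastrula, then 4.02 in the prism library and 6.33 in pluteus. Over all genes tested the same medians were 2.32, 2.98, 3.55, 3.60, 4.97, 3.45 and 5.89. Both series had their highest developmental value in the pluteus library and a lower one in the prism library, the one with the low scaling factor.

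The second contrast, pluteus against the mean of early gastrula, late gastrula and prism, called 82 of the 2480 genes lower (3.31%) against a background of 2.62%, and 91 higher (3.67%) against a background of 4.76%. Genes both higher in the window and lower in pluteus, the RNA counterpart of the chromatin pattern, numbered 49 (1.98%) against a background of 1.54%. Of the 896 genes higher in the window, 49 were lower in pluteus (5.47%) and 30 higher (3.35%), against 4.65% and 4.65% of all genes higher in the window. The pluteus counts depended on the fit: without the prism library 148 genes were lower (6.01%, against 4.97% of all genes), and with a spline of 5 degrees of freedom 17 were (0.685%, against 0.51%). The fitted curve also departed from single libraries. In 70 of the 82 genes called lower (85.4%), the pluteus library itself was below the mean of the other 3. Over all genes called lower the share was 86.4%. This check, on the scale of log2 TMM-scaled CPM + 0.5, was added after the data were seen. The median difference on that scale was −0.56 in the 82 genes, smaller than the fitted fall of 1 that a call needs. In the 91 called higher it was 1.78.

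Some other kinds of start peak went with other RNA levels. Genes whose start peaks were in all 5 lists were higher in the window in 45.6% of 1422 cases, with a median log2 change of 1.21. Those whose start peaks were shared with pluteus but not 16-cell were higher in 29.9% of 3340 cases, with a median change of 0.18 and a high level throughout, from a median of 14.2 CPM in the egg to 20.7 in pluteus. Genes with no gastrula peak at their start were higher in 30.4% of 11760 cases. Where start peaks were shared with 16-cell but not pluteus, 38.2% of 304 genes were higher, with a median change of 1.03. Where they were of the remaining gastrula kinds, 38.0% of 2584 were higher, with a median of 0.67. These were near the genes with only blastula-to-prism peaks at their start, at 37.0% and 0.63. Genes with only blastula-to-prism peaks at their start had medians of 1.54 CPM in the egg and 4.26 in pluteus. Both were well below those of genes with start peaks shared with pluteus but not 16-cell. The remaining classes were low in the egg too. Their medians were 1.70 for all 5 lists, 0.463 for 16-cell but not pluteus, 1.70 for the remaining gastrula kinds and 1.23 for no start peak. These differences between classes were not tested.

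**Figure D4:**
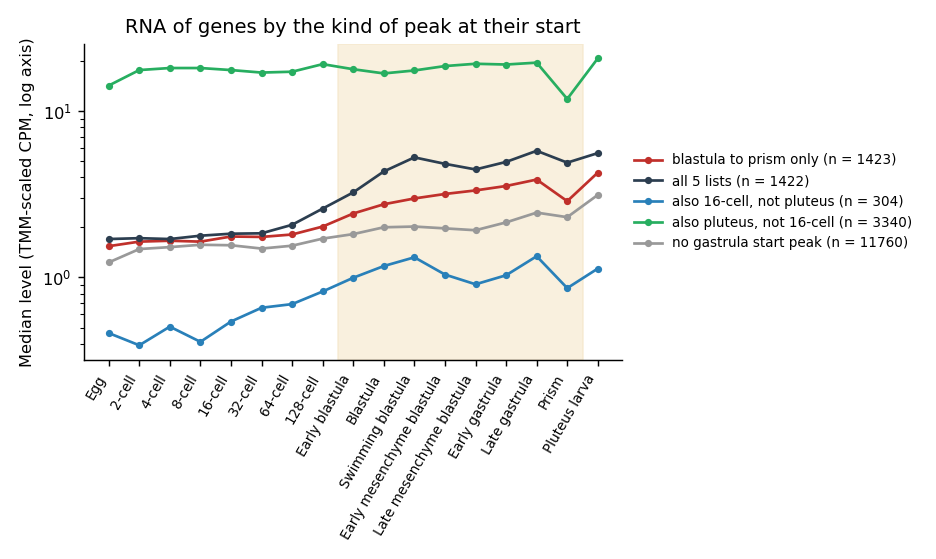
Median RNA level (y axis, TMM-scaled CPM, log axis) in each developmental library (x axis) for genes grouped by the kind of gastrula peak within 1 kb of their start, with the early blastula to prism libraries shaded. Genes with only blastula-to-prism peaks at their start go from 1.54 CPM in the egg to 4.26 in pluteus, and those shared with pluteus but not 16-cell from 14.2 to 20.7.

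In adult tissues, scaled over all libraries, the 2480 genes had median levels of 5.37 CPM in ovaries, 5.20 in gut, 5.84 in bodywall, 5.06 in tubefeet and 2.88 in Aristotle's lantern, the chewing apparatus. Over all genes tested these were 3.33, 4.23, 5.05, 4.90 and 2.88. The ovaries showed the widest gap, but it did not hold for the 1423 genes with only such regions at their start. Their ovary median was 2.92 CPM, below that of all genes, while the 1057 genes with another kind of gastrula start peak as well had 8.96. These differences were not tested.

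Regions were also given to the gene with the nearest start on their scaffold, which placed 35880 of them at 16881 genes. The share of genes higher in the window was 32.5% for the 11043 tested genes with no such region, 33.4% with 1, 33.7% with 2 to 4, 37.3% with 5 to 9 and 50.0% of 40 genes with 10 or more, against the background of 33.2%. The corresponding median changes were 0.43, 0.47, 0.43, 0.55 and 1.95. Genes with more of these regions had more gastrula peaks of every kind, with medians of 1, 3, 7, 14 and 25. Among genes with 5 to 9 gastrula peaks, grouped after the data were seen, 35.5% were higher where under 20% of the peaks were blastula-to-prism regions and 33.4% where 40% or more were. Among those with 10 to 19 peaks the shares were 29.1% of 954 genes and 39.2% of 395, so these shares ran in opposite directions, with no test of either.

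The relative standing of a start region in blastula and prism was also set beside RNA, a grouping made after the data were seen. The lean was the blastula percentile minus the prism percentile. It was taken for the 2340 tested genes whose start was the nearest to such a region within 1 kb, in 4 groups of 585. In the group whose regions leaned most to prism, the median log2 difference between gastrula and blastula libraries was 0.15. It was 0.17 and 0.11 in the middle groups and −0.05 in the group that leaned most to blastula, against 0.05 over all genes. The median log2 difference between the prism and blastula libraries was −0.29, −0.34, −0.37 and −0.51 in the same order, against −0.35 over all genes. The share of genes higher in the window was 36.6%, 37.3%, 35.2% and 36.9% in the same order.

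As examples, 4 genes were taken, those called higher and those called lower that had the most blastula-to-prism regions nearest to their start, with at least 1 within 1 kb of it and at least 20 CPM in a developmental library. The rule counted regions and not their share of gastrula peaks, which was 26.4% over the whole gastrula list. Neighbouring regions can also share a partner peak. Levels of single genes are CPM of the library total. The strand that was counted is not settled, so these are levels of reads assigned to a model.

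PL36760, at Scaffold_3432:25722665-25762681 on the minus strand, had 8 blastula-to-prism regions among its 34 gastrula peaks. Of these, 4 were intronic, 3 were upstream of the start and 1 was 440 bp downstream of it. The largest, at Scaffold_3432:25765734-25766151, had an area of 2347.0 and percentiles of 81.7 in gastrula, 44.0 in blastula and 50.9 in prism.

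The level of PL36760 was 0 in the egg, 2-cell, 4-cell, 16-cell and 32-cell libraries, 2.88 CPM at the 8-cell stage, 0.103 at the 64-cell and 0.276 at the 128-cell stage. The floor of 3 counts stood at 0.381 CPM in the egg, and the exact 95% Poisson interval for its count of 0 reached 0.469 CPM. It was 4.01 in early blastula, 7.94 in blastula, 33.7 in swimming blastula, 65.8 and 66.4 in early and late mesenchyme blastula, 35.8 and 47.7 in early and late gastrula, and then 9.27 in the prism and 57.4 in the pluteus library. Every window library was above every early library, the 8-cell library being the highest of the early ones. PL36760 rose in the window by 6.91 on the log2 scale, with an SE of 1.31 and an adjusted p of 0.00019 from edgeR, and the fitted pluteus contrast was −1.48 (SE 0.94, edgeR adjusted p = 0.405). The libraries themselves ran the other way, since PL36760 was at 53.3 TMM-scaled CPM in pluteus, above 36.3, 41.3 and 25.3 in early gastrula, late gastrula and prism, a log2 difference of 0.66.

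PL38632, at Scaffold_3426:47392241-47535555 on the plus strand, had 8 such regions among 15 gastrula peaks. Of its start peaks, 1 was 99 bp and 1 was 511 bp upstream of the start, and 5 regions were in introns up to 29476 bp downstream. The model overlapped 2 other models, so its counts are uncertain.

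The level of PL38632 was 0.381 CPM in the egg, 0.912, 1.28 and 0.436 at the 2-, 4- and 8-cell stages and 0 at the 16-cell stage. The 32-, 64- and 128-cell libraries had 0.324, 0.930 and 0.207. It was 0.0911 in early blastula, 1.77 in blastula, 1.25 in swimming blastula, 1.86 and 3.69 in early and late mesenchyme blastula, 15.02 and 23.9 in early and late gastrula, and then 2.32 in the prism and 22.0 in the pluteus library. The window and early libraries overlapped, because early blastula and swimming blastula were no higher than the 4-cell library, and the gastrula and pluteus libraries were the high ones. PL38632 rose by a fitted 2.73 on the log2 scale (SE 0.66, edgeR adjusted p = 0.00179), and the pluteus contrast was 0.48 (SE 0.73, edgeR adjusted p = 0.769). In adults it was highest in tubefeet, at 58.8 CPM.

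PL38794, at Scaffold_3426:12423523-12574532 on the minus strand, had 10 such regions among 21 gastrula peaks. Of these, 5 were intronic, up to 61809 bp from the start, and 2 were at the start, 5 bp downstream and 285 bp upstream of it. The one 5 bp downstream was the largest, with an area of 1713.2 and percentiles of 75.7, 47.8 and 47.3 in gastrula, blastula and prism.

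The level of PL38794 was 27.8 CPM in the egg, 42.5, 42.1, 52.6 and 43.6 at the 2-, 4-, 8- and 16-cell stages, and 37.7, 33.4 and 31.6 at the 32-, 64- and 128-cell stages. It was 19.2 in early blastula, 5.41 in blastula, 0.914 in swimming blastula, 0.355 and 0.379 in early and late mesenchyme blastula, 1.47 and 2.19 in early and late gastrula, and then 0.737 in the prism and 2.43 in the pluteus library. All window libraries were below all early ones. PL38794 fell by 4.2 on the log2 scale in the window (SE 0.38, edgeR adjusted p = 4.69e-08), and its fitted pluteus contrast was 1.80 (SE 0.51, edgeR adjusted p = 0.0356). The libraries themselves showed a smaller difference, with 2.26 TMM-scaled CPM in pluteus against 1.49, 1.89 and 2.01 in early gastrula, late gastrula and prism, or 0.27 on the log2 scale.

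PL33115, at Scaffold_641:36128306-36168291 on the minus strand, had 9 such regions among 14 gastrula peaks, 7 of them upstream of the start as far as 26426 bp. Its start peak, at Scaffold_641:36167984-36168605, had its summit 1 bp upstream of the start, an area of 1330.8 and percentiles of 70.0, 61.8 and 53.0 in gastrula, blastula and prism.

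The level of PL33115 was 113 CPM in the egg, 104.7, 101.0, 110.3 and 96.1 at the 2-, 4-, 8- and 16-cell stages, and 95.8, 94.4 and 87.0 at the 32-, 64- and 128-cell stages. It was 41.5 in early blastula, 28.1 in blastula, 11.1 in swimming blastula, 3.64 and 6.72 in early and late mesenchyme blastula, 5.80 and 10.8 in early and late gastrula, and then 0.948 in the prism and 14.4 in the pluteus library. Its window libraries were again all below the early ones. PL33115 fell by 3.14 (log2, SE 0.29, edgeR adjusted p = 5.85e-08), and the pluteus contrast was 0.91 (SE 0.34, edgeR adjusted p = 0.12). In CPM of the library total, all 4 genes were low in the prism library next to late gastrula and pluteus. After TMM scaling PL36760, PL38632 and PL33115 were still lower there, at 25.3, 6.32 and 2.59. Late gastrula had 41.3, 20.7 and 9.39, and pluteus 53.3, 20.5 and 13.4. PL38794 was no longer low, with 2.01 in prism between 1.89 in late gastrula and 2.26 in pluteus. The reason for the lower prism levels was not tested.

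**Figure D5:**
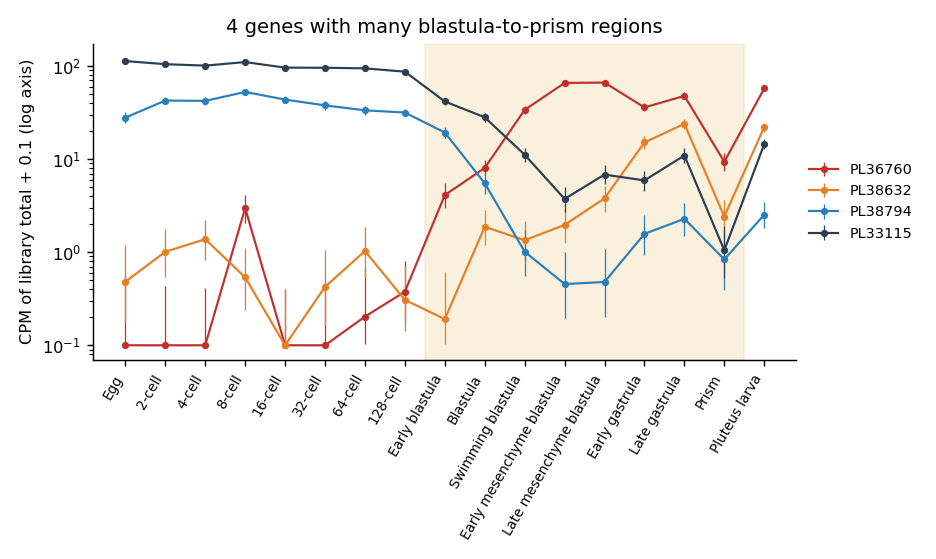
RNA level of 4 genes (y axis, CPM of the library total + 0.1, log axis) in each developmental library (x axis), with bars for 95% exact Poisson intervals that cover counting error only and the early blastula to prism libraries shaded. PL36760 goes from 0 CPM in the egg to 66.4 in late mesenchyme blastula, while PL33115 goes from 113 in the egg to 3.64 in early mesenchyme blastula, although each has 8 or more blastula-to-prism regions.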

How the data were processed

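Peak lists and a gene count table from staged Paracentrotus lividus embryos were analysed. The submitters' processing notes name Bowtie2 2.4.1 and Genrich, for ATAC-seq, and STAR 2.5.2b and featureCounts 1.6.1, for RNA-seq. As deposited by the authors, each peak has a signal value (its area, used here for ranks), a score and a −log10 p-value. They are named for all samples of a stage and were taken as pooled, so no replicate lists were compared. No genome build is named in the sources used here. Coordinates are printed 1-based.

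RNA values are raw counts of reads for each gene model, as deposited by the authors without normalization. Per the file headers, strand option 1 was used, and whether the kit's reads follow that strand is not settled. Every count was even except in bodywall, so for the other libraries count intervals and the floor of 3 counts rest on counts divided by 2. The main edgeR fit used the counts as deposited. CUT&Tag samples were not analysed here.

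Overlaps were computed in Python 3.11.15 and checked with bedtools 2.31.1. A gene start was the outermost exon end on the 5′ side. Counts of 17 developmental libraries were fitted in edgeR 4.0.16 (R 4.3.3) after filterByExpr and TMM scaling, with a natural spline of 4 degrees of freedom over the order of stages, which left 12 residual. With 1 library per stage, p-values measure scatter around the curve, which may be technical. DESeq2 1.42.0 was an alternative. On simulated counts for 22940 genes, a dispersion of 0.1, the first value tried, gave window calls for all 100 genes with a 4-fold change, 46 of the 100 with a 2-fold change and 5 of the 22740 that were left alone. At the dispersion estimated from the real counts, 0.319, which was tried afterwards, it called 56, 3 and 2, with the right sign in all changed genes called. Power at 2-fold was therefore low in these simulations, and counts of calls can miss many such changes. Each run gave every simulated gene the same dispersion, and detection was not split by expression level. These rates therefore may not hold for genes with few reads, and power for such genes was not tested.

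The regions and comparisons were chosen with earlier results of these data known. The rule for examples took, from genes with a region within 1 kb of their start and 20 CPM in a library, the 2 called higher and 2 called lower with the most regions nearest. For regions it took the 3 largest near a start, the 3 largest over 10 kb away and the 2 richest 100 kb windows.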

Additional observations from a re-analysis of the deposited data

How the results depend on the processing

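The number of regions was 40604 when 50% of the shorter peak had to overlap, 32766 when no outer-list peak was allowed within 1 kb and 67459 when presence in prism was not required. It was 22564 from the gastrula peaks above their median area, 18139 from the peaks above the median of every list and 634 when every list was held to the 30683 largest peaks. The share near a start was 4.92% within 500 bp, 29.4% within 5 kb and 10.7% with lists of equal length.

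The median window change of genes with a region at their start kept its direction under all 16 alternatives, and exceeded that of all genes by 0.09 to 0.18. The share higher in the window exceeded that of all genes in 16 of 16, by 1.6 to 3.8 percentage points. All 16 draw on the same 17 libraries. All genes include those with no gastrula start peak, of which 30.4% were higher in the main fit. Genes with any gastrula start peak were not used as a background, so the excess is not shown to be particular to these regions. Library size alone moved the median of all genes by −0.28. With counts divided by 2, 726 genes with a region at their start were higher in the window (33.1%, against 31.5% of all genes). In that fit 434 were lower (19.8%, against 21.5%), and the median change was 0.27, against 0.16 over all genes. The 4 example genes kept direction and an adjusted p under 0.05 in 12 of 12 other fits. No median or example change reversed. The share lower in the window, under that of all genes in the main fit, was above it within 500 bp of a start (16.9% against 16.4%). Genes lower in pluteus outnumbered those higher with 3 degrees of freedom (144 against 121) and without the prism library (148 against 113), unlike in the main fit (82 against 91).

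Some changes also altered how many genes entered, and the cause of the moves was not tested. Counts moved by more than 1.5 times as follows, with the share of tested genes with such a region and then that of all genes. Library size alone gave 45 lower in pluteus (1.81%, 1.5%) and 25 higher in the window then lower in pluteus (1.01%, 0.859%). A spline of 3 degrees of freedom gave 144 lower in pluteus (5.81%, 4.73%). With 5 there were 17 lower (0.685%, 0.51%) and 57 higher in pluteus (2.30%, 2.78%) and 10 that were higher then lower (0.403%, 0.283%). DESeq2 gave 169 higher in pluteus (6.81%, 8.67%). Without the prism library 148 were lower in pluteus (6.01%, 4.97%) and 81 higher then lower (3.29%, 2.75%). With log2 hours as time these were 41 (1.65%, 1.49%) and 15 (0.605%, 0.58%). A minimum of 5 CPM in 3 libraries left 500 higher in the window (33.0%, 30.4%). The next changes left all genes as in the main fit: 33.2% higher, 16.4% lower, 2.62% lower and 4.76% higher in pluteus, and 1.54% higher then lower. A 500 bp window gave 556 higher (36.4%) and 258 lower (16.9%), with 52 lower (3.40%) and 58 higher (3.8%) in pluteus. A 5 kb window gave 2787 (35.5%) and 1216 (15.5%), with 245 lower (3.12%) and 329 higher (4.19%) in pluteus and 142 higher then lower (1.81%). Genes with only such regions at their start gave 527 (37.0%) and 214, with 49 lower (3.44%) and 57 higher (4.01%) in pluteus and 30 higher then lower (2.11%).

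No paired analysis was possible because each stage had 1 RNA library and 1 peak list. The depth of the ATAC-seq samples is unknown, so absence from a list is absence of a called peak, not of open chromatin.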
